A study of Mus musculus with 28 samples.

Results

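The genes described here are Hmgcs1, Fdft1, Sqle, Lss, Msmo1 and Dhcr7, which encode enzymes of cholesterol synthesis, and Insig1 and Srebf2, which encode proteins that control the pathway. They were listed by symbol, and all 8 were found in the count tables of both batches among 49477 shared genes and passed the filter of a mean of 10 counts that 16266 genes passed. None of the 8 takes cholesterol up from outside the cell, so uptake genes are described apart from them. RNA-seq was run on amygdala micropunches of adult female C57BL6/J mice in 2 batches, and each mouse gave 1 library. The Water group (n = 10) had no access to alcohol, the Acute Drinking group (n = 9) had access to 20% alcohol a single time, and the Chronic Drinking group (n = 9) had it on alternate days over a month. The mice drank by choice with water beside the alcohol, so each mouse set its own dose. Of the Water, Acute and Chronic mice, 4, 4 and 3 belonged to the first batch and 6, 5 and 6 to the second.

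Cholesterol hardly crosses the blood-brain barrier, so the brain makes its own, chiefly in glia, and much of it ends in myelin. Synthesis runs from acetyl-CoA through mevalonate to squalene, which is closed into lanosterol and trimmed to cholesterol. The membrane-bound transcription factor SREBP-2, the product of Srebf2, is escorted to the Golgi by SCAP when sterol is scarce, is cut there, and switches on genes of synthesis and uptake. INSIG proteins hold SCAP and SREBP-2 in the endoplasmic reticulum when sterol is plentiful, and Insig1 is itself a target of SREBP, so the loop feeds back on itself.

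Every member was well above the detection limit in every mouse, with between 563 counts (Lss) and 6854 counts (Hmgcs1) per library. Levels between genes were compared as CPM (counts scaled to a common library size) per kilobase of merged exons in the 10 Water mice, before batch was removed. Hmgcs1, the synthase that makes HMG-CoA at the head of the mevalonate steps, was highest at 57.7 ± 4.12 CPM per kb (SD), above 96.0% of the genes kept. Srebf2 followed at 33.9 ± 3.71, Fdft1 (squalene synthase) at 21.02 ± 1.45 and Insig1 at 17.6 ± 1.16 CPM per kb. Msmo1, the methylsterol monooxygenase, lay at 15.0 ± 1.80, and Sqle, the squalene epoxidase, at 12.9 ± 1.20 CPM per kb. Dhcr7, the reductase of the last step, lay at 6.23 ± 0.471, and Lss, the lanosterol synthase, at 3.17 ± 0.0940 CPM per kb, below the median gene (4.04). The intervals of 1 SD overlapped between Insig1 and Msmo1 and between Msmo1 and Sqle, and the other neighbours in this order were apart by more than their spread.

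The enzymes and regulators also differed in how much they varied between mice once batch and group means were taken out. Srebf2 was the steadiest, with an SD of 0.06 on the log2 scale (4.08%), and 95.8% of the genes kept had a larger SD. Insig1, which answers sterol levels within the same loop, varied most among the 8, with an SD of 0.14 (10.3%), close to the median of all genes (0.14). The other 6 had SDs between 0.08 (Dhcr7) and 0.11 (Hmgcs1). Batch moved 5 of the 8 past an adjusted p of 0.05 in edgeR's test, beside 46.2% of all genes. The second batch was higher by 0.30 for Srebf2 and 0.11 for Fdft1 on the log2 scale, and lower by 0.24, 0.17 and 0.12 for Msmo1, Insig1 and Dhcr7, respectively. The largest of these exceeded every group difference of a member, and all the values by group that follow have the batch difference removed.

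Gene positions are those of GENCODE M21 on GRCm38. Hmgcs1 lies on chr13:119690379-119708260 (plus strand), Fdft1 on chr14:63145150-63179578 (minus), Sqle on chr15:59315077-59331192 (plus) and Lss on chr10:76531588-76557138 (plus). Msmo1 lies on chr8:64718139-64733792 (minus), Dhcr7 on chr7:143823145-143848410 (plus), Insig1 on chr5:28071363-28078662 (plus) and Srebf2 on chr15:82147181-82205379 (plus). Srebf2 holds the microRNA gene Mir33 and Gm49502 on its own strand, and Hmgcs1, Fdft1 and Lss each overlap a gene of the opposite strand (Gm48342, Ctsb and 4930483K19Rik), whose reads the counting may share.

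The promoters of 4 members are shown because these genes stand at the ends of what follows: Hmgcs1 and Msmo1 were among those that tracked the rest of the set most closely between mice, and Insig1 and Srebf2 did not track each other. Sequences are those of RefSeq on GRCm38.p6, which had promoters for 6 of the 8 members, from 250 bases before the start of transcription to 50 after it, read on the gene's strand. The 6 members have 8 windows, since 3 starts are listed for Dhcr7. Capitals mark the sterol regulatory element searched as TCACNCCAC, the NF-Y box CCAAT and the Sp1 box GGGCGG, each also on the other strand (ATTGG and CCGCCC for the boxes); no marked motif overlaps another. The windows are chr13:119690101-119690400 (plus strand) for Hmgcs1, chr8:64733529-64733828 (minus) for Msmo1, chr5:28071162-28071461 (plus) for Insig1 and chr15:82147019-82147318 (plus) for Srebf2.
Hmgcs1: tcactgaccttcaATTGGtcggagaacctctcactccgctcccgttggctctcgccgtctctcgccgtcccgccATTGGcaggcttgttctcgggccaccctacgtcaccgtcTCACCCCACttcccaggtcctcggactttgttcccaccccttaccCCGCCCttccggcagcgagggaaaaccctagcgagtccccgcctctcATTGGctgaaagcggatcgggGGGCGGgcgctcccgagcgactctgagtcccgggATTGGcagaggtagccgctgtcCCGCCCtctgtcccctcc
Msmo1: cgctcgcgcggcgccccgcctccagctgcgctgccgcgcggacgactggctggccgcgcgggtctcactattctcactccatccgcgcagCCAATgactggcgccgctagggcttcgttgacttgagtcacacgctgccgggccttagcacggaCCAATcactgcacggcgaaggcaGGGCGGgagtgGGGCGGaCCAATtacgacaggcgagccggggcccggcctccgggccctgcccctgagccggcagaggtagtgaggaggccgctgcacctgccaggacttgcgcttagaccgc
Insig1: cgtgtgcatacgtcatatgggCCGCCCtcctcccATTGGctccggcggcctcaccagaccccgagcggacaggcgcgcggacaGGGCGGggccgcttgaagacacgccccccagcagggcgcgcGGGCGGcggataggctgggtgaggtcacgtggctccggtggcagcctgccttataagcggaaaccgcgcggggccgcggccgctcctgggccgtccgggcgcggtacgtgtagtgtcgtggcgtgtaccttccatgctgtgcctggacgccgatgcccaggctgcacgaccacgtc
Srebf2: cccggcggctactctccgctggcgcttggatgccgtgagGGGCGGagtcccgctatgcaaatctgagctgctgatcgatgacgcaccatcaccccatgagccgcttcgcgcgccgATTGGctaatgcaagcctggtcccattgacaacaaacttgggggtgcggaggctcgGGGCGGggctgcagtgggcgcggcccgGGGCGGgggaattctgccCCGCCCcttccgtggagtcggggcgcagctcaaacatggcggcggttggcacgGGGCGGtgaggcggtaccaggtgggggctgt

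The letters of the sterol regulatory element were found in 1 of the 8 windows, that of Hmgcs1, where TCACCCCAC stood at bases 114 to 122 of the window, and in 1.242% of the 32851 promoters of the table. The NF-Y box was present in 6 of 8 windows, beside 37.41% of all promoters, with 4 copies in Hmgcs1, 3 in Msmo1 and 1 each in Insig1 and Srebf2. The Sp1 box was present in 7 of 8 windows, beside 35.66% of all promoters, with 5 copies in Srebf2. Among the windows of Dhcr7 the NF-Y box was only in that of the third start, and each of the other 5 members held both boxes. A match describes letters and not binding, and a window without one says only that these letters are not in it.

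Total counts ranged from 20004380 to 22569562 per mouse. At the members' mean counts the counting error was 1.34% (Hmgcs1) to 3.804% (Lss), against an SD between mice within batches and groups of 8.06% for Hmgcs1 and 6.73% for Lss. It was closest to the spread for Dhcr7 (3.57% against 5.77%) and Lss, and among the Water mice it was above the CV of Lss (2.58%). Among the Chronic mice the CV of Dhcr7 (3.52%) was no larger than its counting error. Depth over the shared genes was lowest in Water in both batches: the Water, Acute and Chronic medians were 21395638, 22387236 and 22188456 counts in the first batch and 19674463, 19823591 and 20384521 counts in the second. All 8 amygdala neuron markers searched (among them Prkcd, Nts and Slc17a7) were present in every mouse with at least 67 counts. Their mean log2 CPM differed by 0.16 between Acute and Water mice, with Acute higher (exact permutation p = 0.0091, adjusted p = 0.217 over 24 list comparisons). The lists for oligodendrocytes, OPC, astrocytes, neurons, microglia, endothelial cells and choroid plexus differed by between -0.40 (choroid plexus, Chronic against Water) and 0.12 (oligodendrocytes, Acute against Water), with an adjusted p of 0.877 or more. In bulk tissue, fewer cells of a type and less RNA per cell cannot be told apart, and this holds for each difference below.

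The first comparison asks whether a single access to alcohol moved the members. None of the 8 passed an adjusted p of 0.05 in edgeR's quasi-likelihood test, where 0% of all genes tested did. In Acute mice 7 of the 8 had a higher fitted level than in Water, beside 50.6% of all genes. In the first batch alone 5 did, and in the second 7. At an unadjusted p under 0.05 there were 2 members, Dhcr7 and Fdft1, beside 9.52% of all genes. The median log2 fold change of the 8 was 0.05, against 0.00115 over all genes. It was 0.014 in the first batch alone and 0.079 in the second. Without single mice it ran from 0.025 (without Acute mouse 1) to 0.071. DESeq2 with batch, ComBat-seq followed by DESeq2, and limma-voom also called none of the 8, beside 0.0553%, 0.184% and 0.0123% of all genes. The Acute and Water values of every member overlapped, and 0.0184% of all genes had groups that did not.

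Dhcr7 had the smallest p of the 8. Its level ranged from 32.5 to 39.9 CPM in Water (median 37.0) and from 36.2 to 41.4 CPM in Acute mice (median 40.2). The low end of the Water range was empty among Acute mice, and 8 of 9 Acute mice were above the Water mean. The log2 fold change was 0.11 (SE 0.04, 95% interval 0.03 to 0.18), or 7.56% higher, with p = 0.0084 and an adjusted p of 0.430. The difference had the same sign in both batches (0.13 and 0.08), and the exact permutation test within batches gave p = 0.0219.

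Fdft1, which joins a pair of farnesyl units to squalene at the branch point toward sterols, ranged from 77.4 to 98.97 CPM in Water (median 89.6) and from 86.4 to 101 CPM in Acute mice (median 94.2). The Acute mice lacked the low values of the Water group while the highest values were alike. The log2 fold change was 0.10 (SE 0.04, p = 0.033, adjusted p = 0.501), with 0.01 in the first batch but 0.16 in the second.

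Insig1 had the largest fitted difference, with a log2 fold change of 0.11 and the widest interval of the 8 (-0.01 to 0.23, adjusted p = 0.571). It ranged from 48.0 to 58.2 CPM in Water (median 55.7) and from 53.8 to 71.4 CPM in Acute mice (median 57.8). The exact permutation test gave p = 0.0343, and 8 of 9 Acute mice were above the Water mean. The highest Acute mouse, mouse 33, and the lowest Water mouse, mouse 40, bore on this value: the log2 fold change was 0.07 without the former and 0.08 without the latter.

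The other 5 members had smaller fitted differences, none past an adjusted p of 0.05. Hmgcs1 had Water and Acute medians of 265 and 274 CPM (ranges 238 to 296 and 245 to 311) and a log2 fold change of 0.05 (adjusted p = 0.743). Sqle had medians of 70.4 and 73.4 CPM (ranges 63.1 to 82.5 and 65.5 to 81.4) and a log2 fold change of 0.04 (adjusted p = 0.815). In the first batch alone both of these had a fitted difference below 0. Msmo1 had medians of 92.1 and 94.4 CPM (ranges 86.9 to 103 and 84.8 to 105), with a log2 fold change of 0.03 (adjusted p = 0.880), which was 0.0064 without Acute mouse 1. Srebf2 had medians of 238 and 243 CPM (ranges 225 to 251 and 228 to 253) and a log2 fold change of 0.02, whose 95% interval of -0.04 to 0.08 bounds it to between -2.41% and 5.42%.

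Lss was the only member with a lower fitted level in Acute mice, with a log2 fold change of -0.06 (95% interval -0.15 to 0.03, adjusted p = 0.653). Its Water mice were the tightest set of values among the 8 genes, from 32.8 to 35.6 CPM (median 34.3), and the Acute mice ranged from 30.3 to 38.4 CPM (median 32.1). Of 9 Acute mice, 8 lay below the Water mean, and mouse 5 lay above all the others at 38.4 CPM. The exact permutation p was 0.0701. Without mouse 5 the log2 fold change was -0.10 (adjusted p = 0.354), and with GC content and length offsets it was -0.02.

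**Figure D1:**
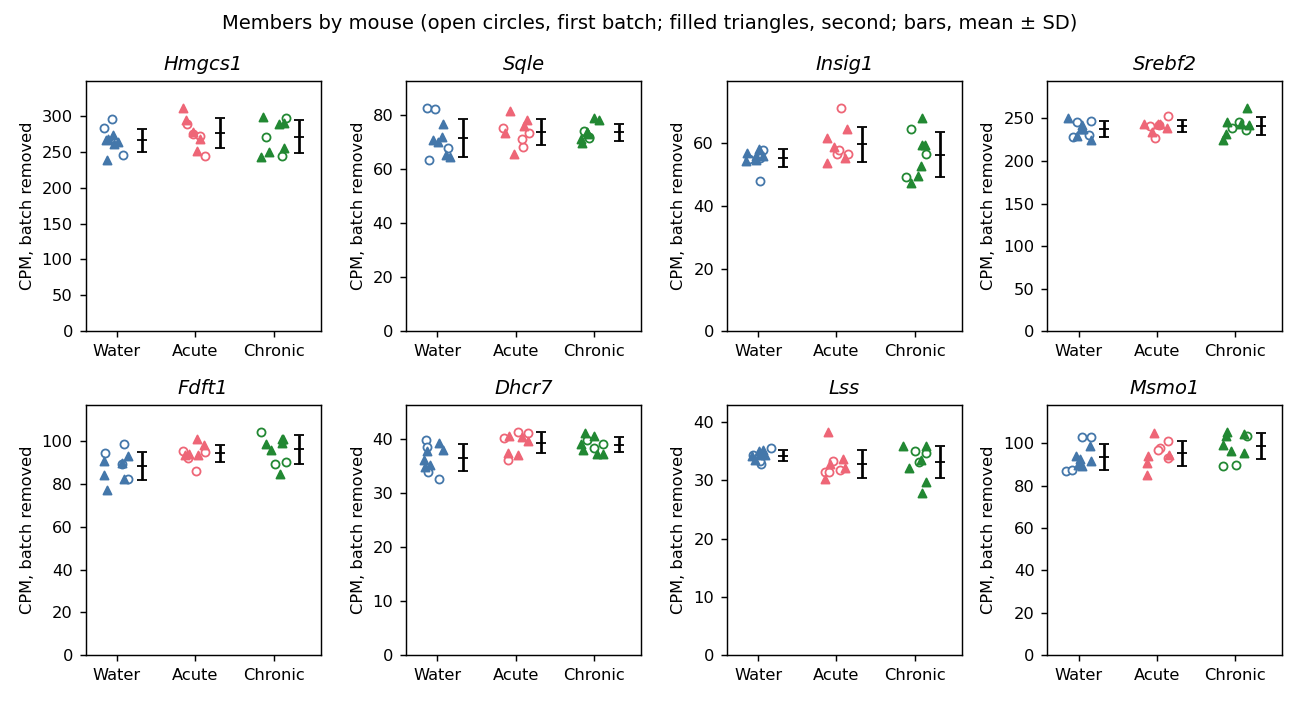
CPM of each member in each mouse with the batch difference removed, by group (Water n = 10, Acute n = 9, Chronic n = 9); open circles are the first batch, triangles the second, and bars the group mean ± SD. The groups overlap in every panel, Dhcr7 and Fdft1 lack low values in the drinking groups, and 1 Acute mouse stands above the rest for Lss (38.4 CPM).

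The second comparison set repeated drinking against Water, with the same Water mice as reference. Again none of the 8 passed an adjusted p of 0.05, beside 0.0184% of all genes (3 genes). A higher fitted level was found for 7 of 8, beside 51.0% of all genes. In the first and second batch alone it was found for 5 and 7 of 8. Those at an unadjusted p under 0.05 were again Fdft1 and Dhcr7, 2 of 8, beside 10.5% of all genes. DESeq2 with batch, ComBat-seq followed by DESeq2, and limma-voom called none of the 8, beside 0.234%, 0.54% and 0.0123% of all genes. The median log2 fold change was 0.03, against 0.00220 over all genes, and every member's groups overlapped (0.0184% of all genes did not). By batch the median was 0.013 (first) and 0.064 (second). Without single mice it ran from 0.024 (without Water mouse 40) to 0.055 (without Water mouse 43).

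Fdft1 ranged from 84.8 to 105 CPM in Chronic mice with a median of 98.9, above the Water median of 89.6. Its log2 fold change of 0.12 (SE 0.04, 95% interval 0.04 to 0.21), or 8.96% higher, was the largest among the 8 here, with p = 0.0070 and an adjusted p of 0.279. The exact permutation test gave p = 0.0227. By batch it was 0.05 (first) and 0.17 (second).

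Dhcr7 ranged from 37.2 to 41.2 CPM in Chronic mice (median 39.1), and 9 of 9 were above the Water mean. These Chronic values were close together (SD 1.37 CPM, against 2.46 in Water), and the low end of the Water range was empty. The log2 fold change was 0.09 (SE 0.04, p = 0.0192, adjusted p = 0.366), and by batch 0.11 (first) and 0.08 (second).

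Msmo1 had a Chronic median of 99.1 CPM (range 89.1 to 106) and a log2 fold change of 0.07 (adjusted p = 0.546), with fitted values of -0.01 and 0.12 in the first and second batch. Sqle had a median of 72.7 CPM (range 69.7 to 78.7) and a log2 fold change of 0.04 (adjusted p = 0.809). Chronic mice varied less than Water mice in Sqle, with SDs of 3.09 and 7.02 CPM; the difference in spread was not tested. Hmgcs1 had a median of 270 CPM (range 244 to 298), Srebf2 of 243 CPM (range 224 to 263) and Insig1 of 56.6 CPM (range 47.2 to 68.0), each with a log2 fold change of 0.02 or 0.03 and an adjusted p from 0.800 to 0.908. Lss, at a median of 33.5 CPM (range 27.9 to 36.0), had a log2 fold change of -0.05 (adjusted p = 0.725). For Hmgcs1, Sqle, Lss and Msmo1 the first batch alone gave the opposite sign.

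Between the drinking groups, 4 members had a higher and 4 a lower fitted level in Chronic than in Acute mice. None passed an unadjusted p of 0.05, beside 4.44% of all genes, and the adjusted p was 0.998 or more for each. Fold changes ran from -0.08 (Insig1) to 0.05 (Msmo1) on the log2 scale. The 95% interval of the difference was -0.09 to 0.07 for Dhcr7 and -0.06 to 0.12 for Fdft1. No member's group difference was shown to depend on batch in any comparison: the smallest p for the interaction was 0.0948 (Msmo1, Chronic against Acute; adjusted p = 0.984).

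**Figure D2:**
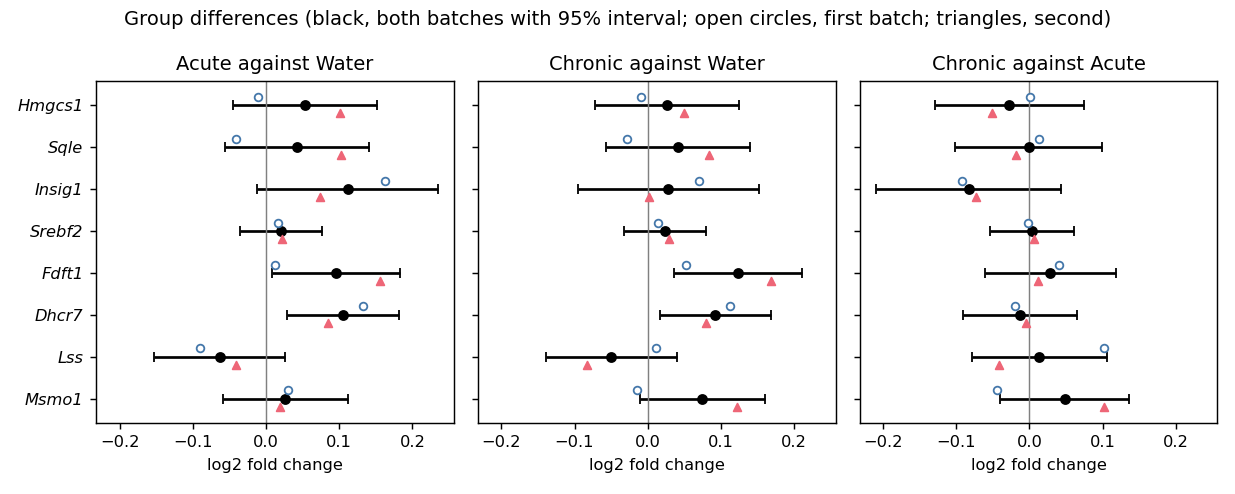
Fitted log2 fold change of each member in the 3 comparisons (black, with its 95% interval) and the same in the first batch (open circles) and second batch (triangles) alone. Dhcr7 and Fdft1 have intervals above 0 against Water, at 0.11 and 0.10 in Acute and 0.09 and 0.12 in Chronic mice before adjustment; the others reach 0.

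The other genes of the pathway were examined as lists of enzymes, regulators and transport genes that hold the 8 members among them. Of 49 listed genes, 48 could be tested and none passed an adjusted p of 0.05 in any comparison in edgeR. The lists hold 21 genes of synthesis (8 mevalonate steps and 13 squalene and sterol steps). Of these, 17 had a higher fitted level in Acute and 15 in Chronic mice than in Water, beside 50.6% and 51.0% of all genes. By batch these counts were 11 of 21 in the first and 19 of 21 in the second for Acute mice, and 10 of 21 and 16 of 21 for Chronic mice. At an unadjusted p under 0.05, 7 of 21 were higher in Acute mice and 6 of 21 in Chronic mice and none was lower, while 5.07% and 4.81% of all genes were higher at that p and 4.45% and 5.65% lower. The median log2 fold change over these 21 genes was 0.05 in Acute and 0.07 in Chronic mice, but in the first batch alone it was 0.012 and -0.0099, against 0.084 in the second batch for both. Both comparisons rest on the same Water mice. Many of these genes also varied together between mice (below), so the counts are not counts of independent genes. Between the drinking groups 1 of 21 was higher and 1 lower at that p, beside 1.95% and 2.5% of all genes.

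Mvk, mevalonate kinase, had the smallest p among the mevalonate steps in both. It ranged from 11.6 to 15.8 CPM in Water (median 13.4), from 13.7 to 17.3 in Acute (median 14.3) and from 14.1 to 16.0 in Chronic mice (median 15.7), and every drinking mouse was above the Water mean. The log2 fold change was 0.15 in Acute (adjusted p = 0.472) and 0.18 in Chronic mice (adjusted p = 0.272). In Acute mice Fdps (0.12), Pmvk (0.09) and Acat2 (0.11) also had an unadjusted p under 0.05. In Chronic mice Acat2 (0.14) and Fdps (0.12) did. Tm7sf2, a sterol reductase, had the smallest p of the later steps between the drinking groups (0.11, adjusted p = 0.998).

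Among 11 regulators, 10 had a higher fitted level in Acute mice (9 and 8 in the first and second batch alone), beside 50.6% of all genes. In Chronic mice 9 did (8 in each batch alone), beside 51.0% of all genes. None had an unadjusted p under 0.05 against Water. The smallest was that of Mylip, a ubiquitin ligase induced by sterols, in Acute mice (0.07, adjusted p = 0.552), and of Nr1h2, a sterol-sensing nuclear receptor, in Chronic mice (0.08, adjusted p = 0.492). Of 10 uptake and transport genes, 5 were higher and 5 lower in each comparison, though in Chronic mice 8 were higher in the first batch alone and 2 in the second; Vldlr (-0.06, adjusted p = 0.642) had the smallest p in Acute mice, and Scarb1, a lipoprotein receptor, in Chronic mice (0.12, adjusted p = 0.429) and between the drinking groups (0.12, adjusted p = 0.998). Of 6 efflux, storage and breakdown genes, Apoe, the main apolipoprotein of the brain, had a log2 fold change of 0.09 in Acute mice (adjusted p = 0.502) and Abca1, the exporter that loads it, one of -0.19 in Chronic mice (adjusted p = 0.293; 0.05 and -0.34 in the first and second batch), while Abcg4 was 0.10 higher in Chronic than in Acute mice (adjusted p = 0.998).

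The members moved together between mice of the same group. After the mean of each batch and group was taken out of log2 CPM, Pearson's r was above 0 in 27 of the 28 pairs over 28 mice, with a median of 0.468. Over all 132283245 pairs of the genes kept the median was -0.001, and 3.64% of them were at or above 0.468; all pairs share the same libraries. An adjusted p under 0.05 was reached by 10 pairs with Pearson's r, by 14 with Spearman's rho and by 9 with both (100000 permutations within batches and groups, adjusted over 28 pairs). The median r was 0.591 in the first batch (11 mice) and 0.378 in the second (17 mice), and 24 pairs were above 0 in both. Leaving out the 2 mice farthest from the median of 1 gene in each pair gave a median of 0.473.

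The tightest pair was Fdft1 and Msmo1 at r = 0.760 (rho = 0.807, adjusted p = 0.00056), with 0.910 and 0.625 in the first and second batch and 0.788 without the 2 farthest mice. Sqle and Msmo1 followed at 0.751 (rho = 0.712, adjusted p = 0.0059), Hmgcs1 and Msmo1 at 0.693 (rho = 0.716, adjusted p = 0.0059) and Hmgcs1 and Sqle at 0.692 (rho = 0.759, adjusted p = 0.0015). Hmgcs1, Fdft1, Sqle and Msmo1, 4 enzymes spread over early and late steps, thus formed pairs that all passed the test, between 0.598 and 0.760. The remaining passing pairs were Insig1 with Fdft1 (0.591), Msmo1 (0.568) and Sqle (0.421), and Hmgcs1 with Lss (0.553). Sqle with Dhcr7 had r = 0.558 and did not pass (adjusted p = 0.0734).

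Insig1 and Srebf2, the regulators, had r = -0.01 with each other (rho = 0.061, adjusted p = 0.977), and Insig1 with Dhcr7 (0.044) and Lss with Dhcr7 (0.053) were also near 0. Srebf2 was above 0 with each enzyme, from 0.133 (Dhcr7) to 0.484 (Fdft1). None of its pairs passed with Pearson's r; with Spearman's rho those with Hmgcs1, Sqle, Fdft1 and Msmo1 did (adjusted p from 0.0184 to 0.0447).

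**Figure D3:**
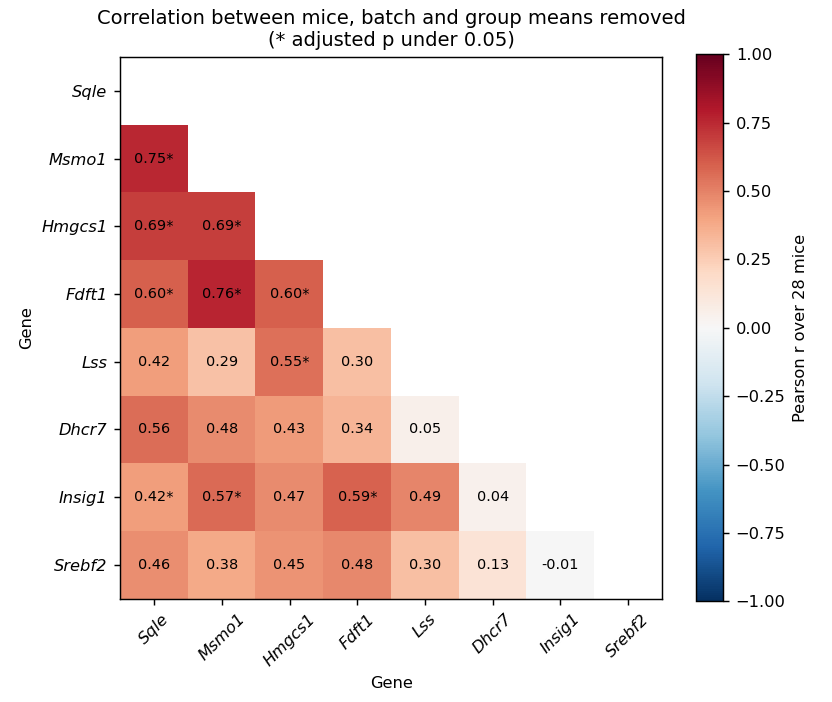
Pearson's r between members over 28 mice after batch and group means were removed; the colour gives r from -1 to 1 and stars mark an adjusted p under 0.05. The block of Sqle, Msmo1, Hmgcs1 and Fdft1 is the darkest, from 0.60 to 0.76, and Insig1 with Srebf2 is at -0.01.

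**Figure D4:**
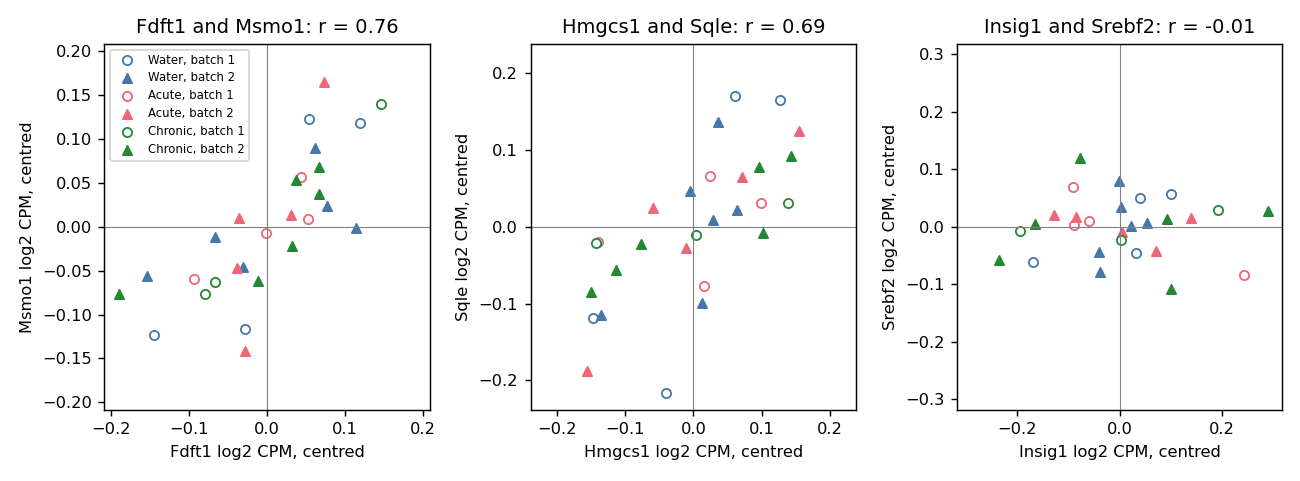
Centred log2 CPM of 3 pairs of members, 1 point per mouse, with colours for groups, open circles for the first batch and triangles for the second. Fdft1 with Msmo1 (r = 0.76) and Hmgcs1 with Sqle (r = 0.69) rise together within all 3 groups, and Insig1 with Srebf2 (r = -0.01) does not.

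Within single groups the median r over the 28 pairs was 0.603 among Water mice, 0.394 among Acute and 0.526 among Chronic mice. Without single mice of the group it ran from 0.506 to 0.683, from 0.219 (without Acute mouse 1) to 0.504 and from 0.380 to 0.676. No p is given for these values from 9 or 10 mice, and differences between groups were not tested. In Water every pair was above 0, though the 7 pairs with Lss rest on values whose CV (2.58%) was below the counting error of 3.79% at their mean count, and without Water mouse 40 a pair with Dhcr7 was below 0. The r of Dhcr7 with the other 7 members had a median of 0.603 in Water and 0.523 in Acute mice, with none below 0, and of -0.332 in Chronic mice, with 7 of 7 below 0. With Sqle it was 0.786, 0.523 and -0.485 in the Water, Acute and Chronic groups. The Chronic mice also had the narrowest Dhcr7 range, from 37.2 to 41.2 CPM, and their CV of 3.52% was no larger than the counting error of 3.52% at their mean count, so their Dhcr7 values cannot be told from counting noise and the negative r is given as a description only. Without single Chronic mice the median r of Dhcr7 ran from -0.599 to -0.121 (without mouse 6). Srebf2 had a median r with the other members of 0.602 for Water, 0.040 for Acute (-0.250 to 0.202 without single mice) and 0.400 for Chronic mice. Insig1 with Srebf2 was 0.602 for Water mice, -0.751 for the Acute group and 0.101 for the Chronic group. The Acute value rests in large part on mouse 33, the highest of its group for Insig1 (71.4 CPM) and the lowest for Srebf2 (228 CPM): without it r was -0.340. In Chronic mice r ran from -0.096 to 0.333 without single mice. Fdft1 with Msmo1 stayed between 0.726 and 0.874 in the 3 groups, and Hmgcs1 with Sqle between 0.745 and 0.839. Leaving out single mice within 1 group was chosen after the data had been seen.

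Against the mean of the other 7 members, each member was ranked among 16259 genes (itself and every gene outside the set). Sqle and Msmo1 each ranked 4 (r = 0.800 and 0.804), Hmgcs1 6 (0.797) and Fdft1 17 (0.745). Insig1, Lss, Srebf2 and Dhcr7 ranked 743, 1023, 1300 and 1558 (r from 0.388 to 0.502). For single members the gene with the highest r over 28 mice was Eif1ax for Hmgcs1 (0.785), Gng2 for Sqle (0.856), Wdr37 for Insig1 (0.812), Ube2o for Srebf2 (0.890), Acat2 for Fdft1 (0.789), Htr5a for Dhcr7 (0.734), Mybl1 for Lss (0.768) and Cd200 for Msmo1 (0.900). Only Acat2, which makes acetoacetyl-CoA, is itself a gene of the pathway.

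Outside the set, the 10 genes most like the mean of the 8 over 28 mice had r from 0.868 to 0.770, and Gnai1, Rnf11, Cd200, Nsdhl, Zfp367, Rad23b, Map2k4, Scamp5 and Ntm were among them. Nsdhl (0.816, rho = 0.843), which acts right after Msmo1 in removing methyl groups, is an enzyme of the same pathway and ranked 5. Gnai1, a G protein subunit, led at 0.868 (0.959 and 0.761 by batch). Over all 16258 genes outside the set the median was 0.0155, and r of 0.631 or more marked the top 1% (162 genes).

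Of the 15 synthesis genes outside the set, 8 were in that top 1%, among them Nsdhl, Acat2 (0.761), Cyp51 (0.760), Mvk (0.710), Fdps (0.693) and Mvd (0.637). Idi1 (0.523), Hsd17b7 (0.467), Sc5d (0.349), Lbr (0.348), Pmvk (0.346) and Tm7sf2 (0.331) had lower values. Ebp, a sterol isomerase, was the only one below 0 (-0.248), and its values by batch were opposite (0.531 and -0.693). None of 9 regulators, 10 uptake and transport genes or 6 efflux, storage and breakdown genes was in the top 1%. Stard4, a sterol carrier (0.564), was the closest of these and was in the top 5%. Scap, the escort of SREBP-2, was at 0.443 and Insig2, the relative of Insig1, at -0.416. Scarb1 (-0.521), Mbtps1 (-0.425), which cuts SREBP-2, Lrp1 (-0.414) and Abca1 (-0.403) were also below 0. In the first batch they were at -0.845, -0.619, -0.704 and -0.580, respectively. In the second batch they were nearer 0, at -0.180, -0.154, -0.096 and -0.186. Mbtps2, which also cuts SREBP-2, lay above 0 at 0.480 (0.833 and 0.132 in the first and second batch).

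**Figure D5:**
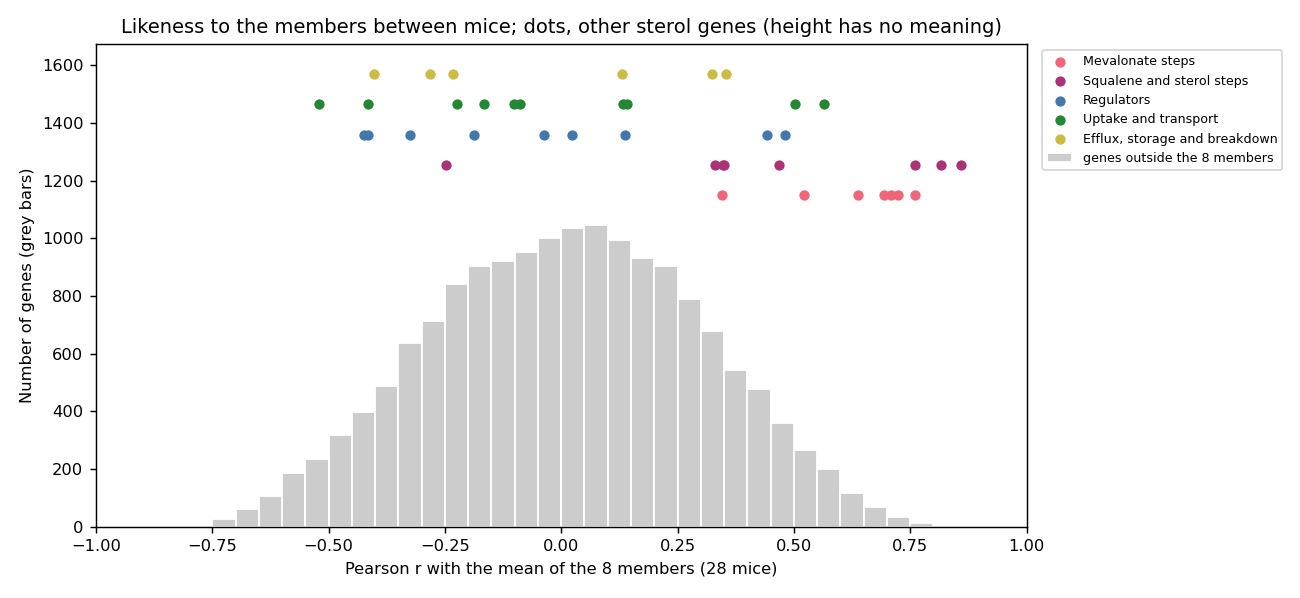
Histogram of Pearson's r between each of 16258 other genes and the mean of the 8 members over 28 mice (grey bars, number of genes), with the other sterol genes as dots by list; the height of a dot has no meaning. Mevalonate genes lie between 0.346 and 0.761 and Nsdhl at 0.816, while regulators, uptake and efflux genes spread on both sides of 0.

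Features of the libraries moved with the members, and their part in the correlations was in part measured. The members' r with the log2 total count of the library, within batches and groups, had a median of 0.544 and ran from 0.189 to 0.652, and Msmo1 passed (0.652, adjusted p = 0.0132 over 80 relations). With the total count regressed out the median r over the 28 pairs was 0.353, and 4 pairs had an adjusted p under 0.05 in place of 10. Fdft1 with Msmo1 was then 0.625, Sqle with Msmo1 0.619 and Hmgcs1 with Sqle 0.563, and Dhcr7 with Insig1, Srebf2 and Lss fell below 0. When library-specific trends on GC content and length were taken out, the median r was 0.523 and 19 pairs passed. The part of the total count in the group differences was not tested.

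The neuron marker score had a median r of 0.298 with the members (0.014 to 0.640), and Srebf2 passed (0.640, adjusted p = 0.0132). With this score regressed out the median r over the pairs was 0.420 and 10 pairs passed. The oligodendrocyte score, of interest because these cells make much of the brain's cholesterol, had r between -0.395 and 0.167 with the members, and none passed (lowest adjusted p = 0.428). With it regressed out the median r over the pairs was 0.458 and 10 pairs passed. Scores for OPC, astrocytes, microglia and endothelial cells had medians from -0.286 to -0.220, those for choroid plexus and amygdala neurons medians of 0.107 and 0.020, and none passed. The TMM factor, which scales a library for its composition, had a median r of -0.273 with the members, and with it regressed out the median r over the pairs was 0.417 and 8 pairs passed. Regressing out the total count, the neuron score or the TMM factor and removing the GC content and length trends were chosen after the data had been seen.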

How the data were processed

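Counts per gene were analysed for 28 mice, 10 Water, 9 Acute and 9 Chronic, grouped by their labels. The authors quantified paired-end reads with Salmon 0.14.1 after FastQC 0.11.8 (versions from the submitters' processing notes) against GRCm38, summarized them by gene, and deposited whole-number counts in a table for each batch, without normalization or batch adjustment. The tables were joined on the Ensembl identifier without its version (50051 and 51073 identifiers, 49477 shared), symbols were taken from GENCODE M21, and 16266 genes averaging 10 or more counts per mouse were kept. Total counts of 20004380 to 22569562 per mouse set the counting error; the 55 pairs of mice of one group and batch all differed by more than sampling noise.

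The group test used edgeR 4.0.16 in R 4.3.3 (TMM normalization, quasi-likelihood test, batch as covariate, all 3 groups in one fit, Benjamini-Hochberg adjustment over all genes kept, threshold 0.05, 2-sided). Alternatives used DESeq2 1.42.0, limma 3.58.1 and ComBat-seq in sva 3.50.0. CPM values use TMM library sizes; for values by mouse the difference between batch means was removed on the log2 scale. Exact permutation tests were 2-sided and regrouped mice within batches (32340 regroupings against Water, smallest p 3.09e-05; 16170 between the drinking groups). Correlations used log2 CPM (prior count 2) centred on the mean of each batch and group, with 100000 permutations within these, for which 1e-05 is the smallest p. Marker scores are means of log2 CPM. The fit and the correlations were tested on simulated data.

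The members, the lists of pathway genes and cell type markers and the tests were chosen with earlier results of these data known. From each list the gene with the smallest p in each comparison was named by rule, with the 10 genes most like the members and the nearest gene of each; the other pathway genes named were chosen after their values were seen. Ch25h and Opalin of these lists were not analysed here, and single values of some listed genes are not reported here. Same-numbered mice of different groups did not deviate together (16 pairs, r of deviations from -0.346 to 0.338, 4 over 0.1), so the numbers were not taken as pairs.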

Additional observations from a re-analysis of the deposited data

Results flagged for a closer look

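Each member in each group was examined for a mouse whose gap to its neighbour was large for the group's range (Dixon's criterion), which chance alone meets in about 1 of 20 groups; of 24 sets of values 2 met it. Insig1 was lower in Water mouse 40 than in the other Water mice, at 48.0 CPM against 54.5 for the next, and the gap was 0.662 of the range. Without that mouse the log2 fold change of Insig1 was 0.08 in Acute (adjusted p = 0.717) and 0.01 in Chronic mice (adjusted p = 0.985). Lss was higher in Acute mouse 5 than in the other Acute mice, at 38.4 CPM against 33.7, with a gap of 0.551 of the range. Without it the number of member pairs with an adjusted p under 0.05 rose from 10 to 16, and the log2 fold change of Lss in Acute mice was -0.10 (adjusted p = 0.354). Both mice were kept in all other values, and the cause of their position was not tested.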

How the results depend on the processing

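No member and no other listed pathway gene was called under any of the 14 alternatives for the group tests (RLE and upper quartile normalization, no filter, a filter at a mean of 100 counts, DESeq2, limma-voom, ComBat-seq and DESeq2, each batch alone, fits of the groups compared, an oligodendrocyte score as covariate, GC content and length offsets, and a replicate block with and without these), nor in fits that left out 1 mouse; the lowest adjusted p of a member was 0.106. The members' median log2 fold change lay between 0.01 and 0.08 (Acute) and between 0.01 and 0.06 (Chronic). Of 336 single values, 21 changed sign. With the first batch alone these were, in Acute mice, Hmgcs1 (-0.011) and Sqle (-0.041), in Chronic mice Hmgcs1 (-0.0099), Sqle (-0.028), Lss (0.012) and Msmo1 (-0.014), and between the drinking groups Hmgcs1 (0.0011), Sqle (0.013), Srebf2 (-0.0025) and Msmo1 (-0.044), and with the second batch alone Lss (-0.042). Sqle, at -0.0011 between the drinking groups, was 0.0011 with RLE, DESeq2 or GC content and length offsets and 0.000306 with limma-voom. Srebf2 in that comparison was -0.000187 with limma-voom and -0.023 with GC content and length offsets, which also moved it to -0.000112 in Chronic mice. Without single mice Sqle ran from -0.020 to 0.020 there, Srebf2 from -0.0085 to 0.016, Lss from -0.0013 to 0.047, and Insig1 in Chronic mice from -0.0091 to 0.056. The small differences from Water moved by over 1.5 times without single mice: in Acute mice Msmo1 ran from 0.0064 (without Acute mouse 1) to 0.045, Sqle from 0.019 to 0.070, Srebf2 from 0.011 to 0.031 and Hmgcs1 from 0.029 to 0.074, and in Chronic mice Hmgcs1 ran from 0.0060 to 0.048, Sqle from 0.023 to 0.066, Srebf2 from 0.0096 to 0.036 and Lss from -0.065 to -0.022. With GC content and length offsets Lss was at -0.023 in Acute and -0.012 in Chronic mice. The members' median between the drinking groups ran from -0.0061 to 0.01 in these fits.

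The replicate block changed no call; it turned Sqle to 0.011 between the drinking groups, and with GC content and length offsets the block gave 0.013 for Sqle and -0.022 for Srebf2. Numbers did not pair the mice, so the block groups mice that share only a number. The number of members with an unadjusted p under 0.05 in Acute mice, 2, was 1 with the block, with GC content and length offsets, with both and in the second batch alone, 0 in the first batch alone and 1 to 3 without single mice; in Chronic mice it was 0 in the first batch alone and otherwise 2 or 3, and between the drinking groups it was 1 in the second batch alone.

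The median r over the pairs stayed above 0 under each of 14 alternatives (0.353 to 0.603) and without single mice (0.418 to 0.501). The number of pairs with an adjusted p under 0.05, 10, became 17 with group means left in, 0 in the first batch, 2 in the second batch, and 0, 0 and 2 for the Water, Acute and Chronic groups alone, where fewer mice enter, and 8 to 16 without single mice (16 without Acute mouse 5). Among alternatives chosen after seeing the data, it was 4 with the total count regressed out and 19 with GC content and length trends removed. Of 392 single r values, 25 changed sign. Insig1 with Srebf2, near 0, was 0.029 with group means left in, 0.028 with the oligodendrocyte score regressed out, 0.020 in the second batch, 0.602 in Water, 0.101 in Chronic mice and 0.211 without GC content and length trends, and from -0.109 to 0.167 without single mice. Dhcr7 with Lss was -0.136 with group means left in, -0.159 in the second batch, -0.394 in Chronic mice, -0.067 with the total count regressed out and from -0.013 to 0.126 without single mice. Dhcr7 with Insig1 was -0.203 in the second batch, -0.332 in Chronic mice, -0.170 with the total count regressed out, -0.011 without GC content and length trends and from -0.104 to 0.127 without single mice. Dhcr7 with Srebf2 was -0.237 in the second batch, -0.194 in Chronic mice and -0.079 with the total count regressed out. In Chronic mice Dhcr7 was at -0.242 with Hmgcs1, -0.485 with Sqle, -0.458 with Fdft1 and -0.268 with Msmo1. In Acute mice Sqle with Srebf2 was -0.128, Srebf2 with Lss -0.100, Fdft1 with Lss -0.205 and Lss with Msmo1 -0.017. The cause of these changes was not tested.

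Groups of 9 and 10 mice with a between-mouse SD of 4.08% to 10.3% limit what can be separated: the 95% intervals of the members' differences from Water reached from -10.0% to 17.7%.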
